A study of Mus musculus with 4 samples.

Results

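Glycolysis and hypoxia response genes were followed in the CD45+ cells of mouse MC38 colon tumors, across 7 cell classes and 4 libraries. A list of 34 genes was taken by name, 32 of which were among the 19059 genes of the count matrices and are described here: 17 of glycolysis, from glucose uptake to lactate export, and 15 of the hypoxia response. They were listed for their known roles, with earlier results of these data already known, and 2 listed genes, Gapdh and Eno1, were not analysed here. Glycolysis splits glucose into pyruvate, and cells that rely on it turn the pyruvate into lactate and export it. When oxygen is short, prolyl hydroxylases of the EGLN family no longer mark the subunit HIF-1 alpha for breakdown, and the stabilised factor raises transcription of most glycolytic enzymes as well as of genes for vessel growth, lipid storage and mitochondrial turnover. Macrophages and neutrophils in tumors are known for high glycolysis and for responding to poorly perfused tissue, and activated T cells also raise glycolysis when they divide.

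The study asked how blockade of the inhibitory Fc receptor FcgRII alters the response to anti-CTLA-4 antibody. B-hCTLA-4 mice, which express humanized CTLA-4 on a C57BL/6 background, bore MC38 tumors, an established colon adenocarcinoma line. Per the labels, tumors of about 100 mm3 were treated 3 times and harvested on day 8, and tumors of 11 mice per group were pooled. Viable CD45+ cells were sorted, fixed and read with the probe-based Chromium Flex assay, with 1 library per group. The isotype control group received human IgG1 at 10 mg/kg. The combination group received ipilimumab, an anti-human CTLA-4 human IgG1, at 10 mg/kg, with AT130-2 as mouse IgG1-N297A, an anti-mouse FcgRII antibody whose Fc hardly binds Fc receptors, at 20 mg/kg. The other 2 groups received a single antibody, but their records contradict themselves. The library titled anti-CTLA-4 names anti-mouse FcgRII as its treatment, and the library titled anti-FcgRII names anti-human CTLA-4. They are called by their titles here, and a difference that involves either cannot be assigned to an antibody. The article describes another number of tumors, day, tumor size and dose for its sequenced cells, and the ages of the mice were not given in the sources used here.

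After filters, 7741 cells in isotype control, 6046 in titled anti-CTLA-4, 5779 in titled anti-FcgRII and 7219 in the combination were used, with medians of 14261 to 18524 UMIs (unique molecules counted) per cell. In each library 31.4% to 34.8% of the droplet barcodes also occurred in another library, as in a pooled run, and no full barcode with its probe tag was shared. Cells were clustered without the 32 genes and named from marker lists, of which 16 of 20 were highest in macrophages, 6 of 12 in monocytes, 11 of 14 in dendritic cells, 11 of 11 in neutrophils, 14 of 14 in T cells, 11 of 12 in NK cells and 13 of 14 in stromal cells. The stromal class had Ptprc, the gene of CD45, at 10.8 to 19.6 CPM against at least 506 CPM in the other 6 classes, so it lacked the transcript that the sort selects for. Its marker list held collagen genes and also the epithelial genes Krt8, Krt18 and Epcam. The name stromal thus covers epithelial-type cells as well, and no step told tumor cells from stromal cells. A level is given as the summed UMIs of a gene per 1000000 UMIs of a class (CPM), which does not allow levels of different genes to be compared because probes differ. A ratio of 2 libraries carries an exact conditional 95% interval for counting error alone, and with 1 library per group no test of a treatment was possible. Where 4 values follow each other, they are in the order isotype control, titled anti-CTLA-4, titled anti-FcgRII and combination.

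Promoters of the members carried the core of the hypoxia response element more often than other promoters. The letters ACGTG or GCGTG, on either strand, were found in the 300 bases around the start of 35 of 45 member promoters (77.8%) in the RefSeq table of GRCm38.p6, against 14380 of 32851 promoters in all (43.8%). By gene, with the promoter that held most matches, 29 of 31 members in the table (93.5%) had at least 1 match, against 46.7% of all genes. The median GC content was 63.3% in member promoters and 52.7% in all promoters, and both motifs are rich in G and C, so base composition moved with the count and its part was not tested. The 250 bases before the start of 4 members are shown, picked after the values were seen from among the 6 that stood at least 1.5-fold above isotype control in at least 3 cell classes of the combination library. Tpi1 and Pgam1, 2 enzymes of the middle of glycolysis, also met this and are not shown. They encode the glucose transporter GLUT1 (Slc2a1, ENSMUSG00000028645), an oxygen-sensing prolyl hydroxylase (Egln3, ENSMUSG00000035105), a lipid droplet protein that restrains lipolysis (Hilpda, ENSMUSG00000043421) and an ankyrin repeat protein known as a HIF target (Ankrd37, ENSMUSG00000050914). The stretches are chr4:119108495-119108744 on the plus strand for Slc2a1, chr12:54203875-54204124 on the minus strand for Egln3, chr6:29272376-29272625 on the plus strand for Hilpda and chr8:45999851-46000100 on the minus strand for Ankrd37. They are written 5′ to 3′ toward the start site, and capitals mark the matches, as ACGTG or GCGTG or as their reverse complements CACGT and CACGC.
Slc2a1: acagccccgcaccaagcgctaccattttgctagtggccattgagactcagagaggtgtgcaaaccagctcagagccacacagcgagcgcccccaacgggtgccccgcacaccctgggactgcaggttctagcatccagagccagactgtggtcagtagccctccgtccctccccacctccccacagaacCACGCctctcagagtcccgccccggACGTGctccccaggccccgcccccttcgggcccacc
Egln3: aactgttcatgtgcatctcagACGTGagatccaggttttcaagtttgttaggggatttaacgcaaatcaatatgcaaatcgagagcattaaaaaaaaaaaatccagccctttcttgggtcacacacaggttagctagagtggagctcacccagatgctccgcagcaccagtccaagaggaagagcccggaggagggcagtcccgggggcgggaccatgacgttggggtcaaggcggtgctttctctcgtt
Hilpda: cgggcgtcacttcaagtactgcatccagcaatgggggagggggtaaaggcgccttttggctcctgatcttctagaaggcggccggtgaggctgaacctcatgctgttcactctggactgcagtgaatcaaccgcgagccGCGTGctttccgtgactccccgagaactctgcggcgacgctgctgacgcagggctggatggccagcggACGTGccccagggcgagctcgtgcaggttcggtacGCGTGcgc
Ankrd37: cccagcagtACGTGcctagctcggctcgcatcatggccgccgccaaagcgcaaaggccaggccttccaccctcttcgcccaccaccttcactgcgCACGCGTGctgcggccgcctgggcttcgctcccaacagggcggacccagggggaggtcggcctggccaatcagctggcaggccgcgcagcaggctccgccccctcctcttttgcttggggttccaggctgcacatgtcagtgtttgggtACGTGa
Slc2a1 held 2 matches, Egln3 1, Hilpda 3 and Ankrd37 4, of which 2 overlap, and a match is a run of letters and not a known binding site. Where a gene had several listed start sites, the one whose 300 bases held most matches was printed, so these numbers were selected for. The Ankrd37 stretch lies inside the listed span of the gene, which ends at 46005707. The Slc2a1 and Hilpda stretches run into the listed spans of their genes, which begin at 119108711 and 29272488. All 3 Hilpda matches lie inside that span.

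Over the 4 libraries, neutrophils had the highest mean level of 14 members, stromal cells of 10, macrophages of 4, T cells of 2, and monocytes and dendritic cells of 1 each. NK cells were highest for no member and lowest for 11. The shares of all genes highest or lowest in each class are not given here. The largest separation was that of Hilpda, whose mean was 1409.6 CPM in neutrophils, 155 CPM in macrophages, the next class, and 19.4 CPM in dendritic cells. Its levels in the 4 neutrophil libraries, 1314, 1617, 1467 and 1241 CPM, lay above every macrophage library. Egln3 showed the same order of size, with a mean of 660.2 CPM in neutrophils against 167 CPM in stromal cells. Slc2a1 was also highest in neutrophils in all 4 libraries (865, 614, 797 and 757 CPM). Macrophages had the next highest mean of it (463, 513, 437 and 514 CPM), although monocytes were above them in the combination with 539 CPM, and NK cells had the lowest mean, 136 CPM. Slc16a3, the lactate exporter MCT4, ranged from a mean of 1086 CPM in neutrophils to 70.2 CPM in NK cells. Vegfa, the vascular growth factor, had means of 406 CPM in neutrophils, 264 CPM in macrophages, 239.5 CPM in stromal cells and 32.9 CPM in T cells.

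The neutrophil levels in isotype control depended on the cell filter. With at least 1000 genes and at most 5% mitochondrial UMIs per cell, which left 65, 69, 29 and 320 neutrophils, Hilpda was at 560.1, 1419, 1144 and 1123 CPM and Egln3 at 369.8, 611, 576 and 903 CPM, and Slc2a1 in isotype control was at 458 CPM against 463 CPM in macrophages. Under that filter 13 members, against 14, had their highest mean in neutrophils.

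Not every enzyme followed neutrophils. Hk2, an inducible hexokinase, had means of 226 CPM in monocytes and 225 CPM in neutrophils, which did not differ beyond the spread over libraries, whereas T and NK cells had 52.4 and 27.6 CPM. Several later steps of the pathway were led by other classes, although neutrophils had the highest means of Pfkp and Pkm (450 and 1187 CPM). Pfkp stood above dendritic cells, the next class, in only 2 of the 4 libraries. Gpi1, Aldoa and Tpi1, the isomerase, aldolase and triose isomerase of the upper pathway, were highest in macrophages, with 1062 CPM of Aldoa there against 766 CPM in neutrophils. Tpi1 was close between macrophages (453 CPM) and stromal cells (423 CPM). Pfkl, Pgk1, Pgam1 and Ldha were highest in stromal cells, although Ldha, which makes lactate, stood above macrophages in only 2 of the 4 libraries. Stromal cells also led Car9, P4ha1 and Higd1a, which encode a cell surface carbonic anhydrase, a collagen prolyl hydroxylase and a mitochondrial protein. Higd1a had a mean of 582 CPM there and 243 CPM in T cells, the next class.

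By class, the transcript of the HIF subunit had its highest mean apart from those of most hypoxia targets. Hif1a was highest in T cells in every library, at 429, 389, 379 and 441 CPM, with a mean of 409.7 CPM against 294 CPM in monocytes and 168 CPM in neutrophils. T cells had the lowest mean of Vegfa, Ndrg1, Pgam1 and Pfkfb4, and the other member with its highest mean there was Ddit4, an inhibitor of mTORC1 signaling. Adm, the vasodilator peptide adrenomedullin, had its highest mean in macrophages, 18.4 CPM, and Car9 in stromal cells and macrophages, with 24.9 and 10.7 CPM. The stromal mean of Car9 was above the macrophage mean in 2 of 4 libraries, so their order depended on the library.

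**Figure D1:**
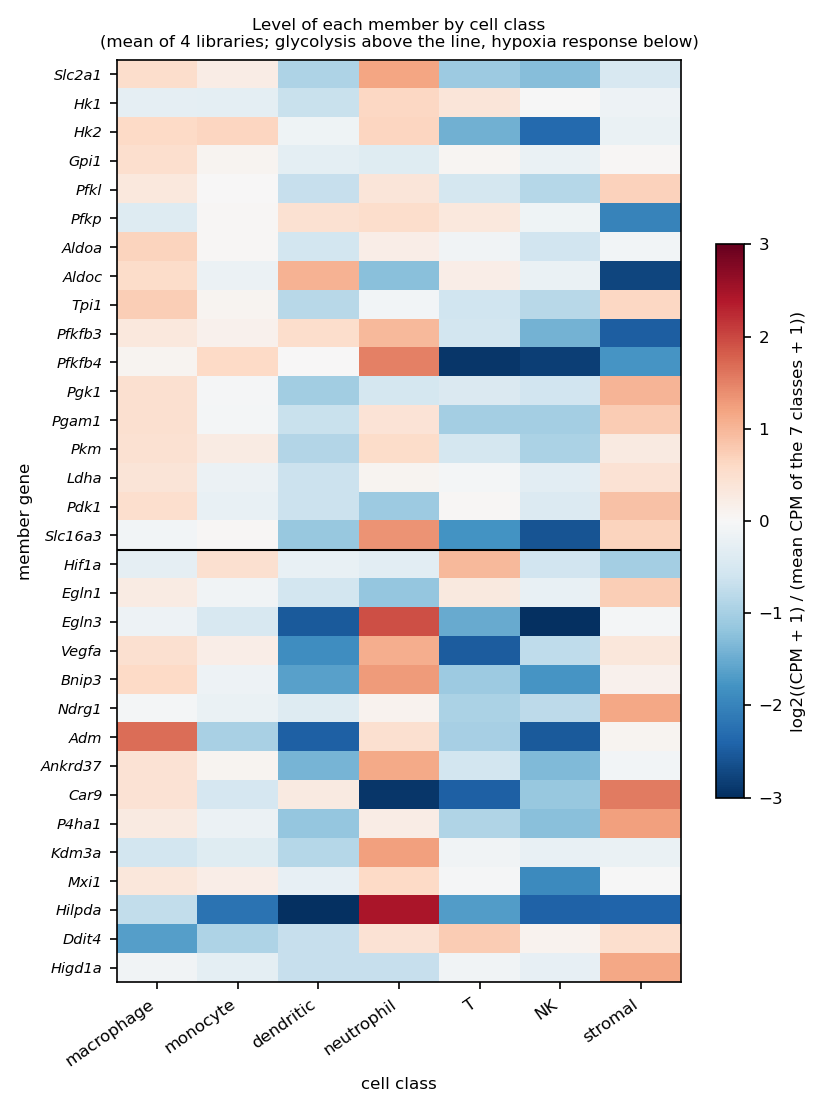
Heat map of the mean level of each of the 32 genes (rows, glycolysis above the line and hypoxia response below it) in the 7 cell classes (columns), averaged over 4 libraries and drawn as log2 of the level plus 1 relative to the mean of the classes plus 1, in CPM. Neutrophils hold the highest level for 14 genes and stromal cells for 10, while NK cells hold the lowest for 11.

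The question of the main comparison was whether these genes differed between the combination and isotype control, class by class. Monocytes, dendritic cells and T cells of the combination held more glycolysis transcript, stromal cells held less hypoxia transcript, and macrophages differed little in sum. The summed level of the 17 glycolysis genes was 4832, 5473, 5339.6 and 6970.2 CPM in monocytes, a ratio of combination to isotype control of 1.44 (95% interval 1.43 to 1.46). In dendritic cells it was 3229, 3579, 3489 and 4698 CPM, a ratio of 1.46 (95% interval 1.40 to 1.51), and in T cells 3837, 4127, 3680.0 and 5114 CPM, a ratio of 1.33 (95% interval 1.29 to 1.38). The combination held the highest value of the 4 in each of these 3 classes. In macrophages the sum was 6708, 7161, 7011 and 7608 CPM, with a ratio of 1.13 (95% interval 1.13 to 1.14), and in NK cells 3206, 3035, 3213 and 3607 CPM, with a ratio of 1.12 (95% interval 1.09 to 1.16). Neutrophils (6946, 6944, 8555 and 7609 CPM) and stromal cells (5814, 7653, 6159 and 5629 CPM) each had their highest sum in a single antibody library.

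The 15 hypoxia response genes divided the classes more widely. Their sum in dendritic cells was 939.6, 1061, 973 and 1481 CPM, a ratio of 1.58 (95% interval 1.48 to 1.68), and in monocytes 1560.5, 1918, 1605 and 2339.8 CPM, a ratio of 1.499 (95% interval 1.47 to 1.53). NK cells stood at 1167, 1169.6, 1261 and 1422 CPM, macrophages at 2042, 2206, 1978 and 2255 CPM and T cells at 1903, 1771, 1659 and 2120.4 CPM, with ratios of 1.22 (95% interval 1.16 to 1.28), 1.10 (95% interval 1.10 to 1.11) and 1.11 (95% interval 1.06 to 1.17). Stromal cells were on the other side, at 2936, 3596, 3173 and 2289 CPM, with a ratio of 0.780 (95% interval 0.761 to 0.799) and the combination lowest of the 4. Neutrophils had the highest sum of the 7 classes in each library, at 3983, 4426, 4359 and 4119 CPM with a ratio of 1.03 (95% interval 0.976 to 1.10). Hilpda alone made up 1314, 1617, 1467 and 1241 CPM of these sums, so the rank leaned on 1 gene. The order of the classes without it is not given here. With the stricter filter of 1000 genes and 5% mitochondrial UMIs, the neutrophil sum was 2354, 4021, 3975 and 3863 CPM and the ratio 1.64, and in isotype control stromal cells then stood above neutrophils, with 2957 CPM.

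**Figure D2:**
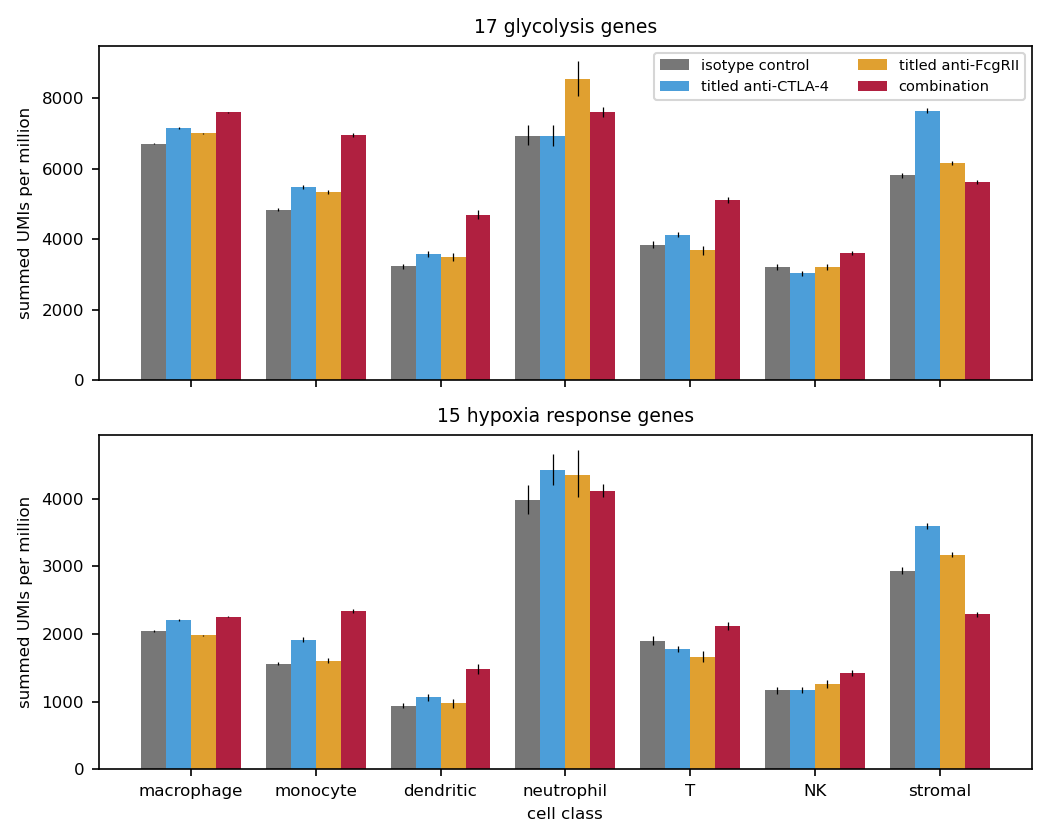
Bars give the summed level in CPM of the 17 glycolysis genes and the 15 hypoxia response genes in each cell class, 1 bar per library, with exact Poisson 95% intervals for counting error. The combination is the highest library for both sums in monocytes, dendritic cells, T cells, macrophages and NK cells, and the lowest for both in stromal cells.

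Of 211 pairs of a member and a class with at least 50 UMIs over the libraries compared, 34 had a level in the combination at least 1.5-fold that in isotype control and 9 a level at least 1.5-fold below it, beside 6.45% and 7.66% of all pairs of a gene and a class. In monocytes 9 of 31 measured members were higher and 0 lower, beside 6.38% and 5.36% of all measured genes, and the median ratio was 1.45 for members and 0.956 for all genes. In dendritic cells 13 of 29 were higher and 1 lower (5.84% and 11.6% of all genes), with medians of 1.38 and 0.930. T cells had 5 of 29 higher and 0 lower (5.77% and 5.5%), with medians of 1.29 and 0.974. The shares of members that were higher lay above the shares of all genes in these 3 classes. NK cells had 3 of 30 higher and 0 lower (5.6% and 3.85%), macrophages 1 of 32 in each direction (6.11% and 6.83%) and neutrophils 3 of 29 higher and 2 lower (16% and 18.1%), so the shares of members in macrophages and neutrophils were below those of all genes in both directions. For neutrophils the share that was higher moved above that of all genes with the stricter cell filter, under which 13 of 29 members were higher and 1 lower, beside 18% and 19.9% of all genes, with medians of 1.47 and 0.967. Another scaling also moved those splits, to 3 higher and 1 lower in macrophages by size factors from the median of ratios, and in neutrophils to 4 and 1 by the same factors or to 1 and 2 by the mean over cells. The shares of all genes by class under these scalings are not given here. Stromal cells had 0 of 31 higher and 5 lower (4.1% and 7.83%), with medians of 0.863 and 0.986. Adm was below the 50 UMIs in 6 classes, Car9 in 4, and Bnip3, Aldoc and Pfkfb4 in 1 each.

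Egln3 and Ankrd37 were at least 1.5-fold higher in the combination in 4 classes, and Slc2a1, Tpi1, Pgam1 and Hilpda in 3. Another 5 members were higher in 2 classes, 4 in 1 class and 17 in none. The shares of all genes higher in as many classes are not given here, so this spread cannot be called particular to the members. The combination held the highest of the 4 levels for 27 of 32 members in monocytes (26.3% of all genes), 24 of 31 in dendritic cells (24.3%), 23 of 29 in T cells (24.1%) and 21 of 30 in NK cells (25.5%). It held the highest for 15 of 32 in macrophages (22.9%), for 9 of 29 in neutrophils (22.6%) and for 1 of 32 in stromal cells (26.5%), where it was lowest for 23 of 32 (31.6%).

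**Figure D3:**
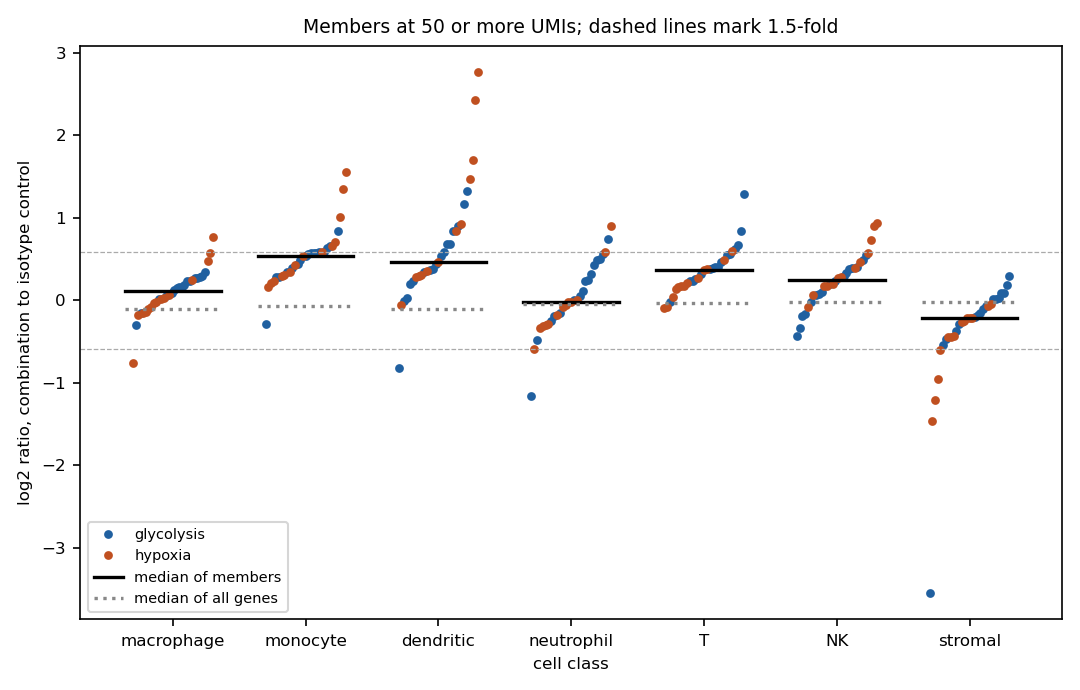
Each point is 1 member, placed by the log2 ratio of its level in the combination to that in isotype control, sorted within each cell class. Black lines mark the median of the members, dotted grey lines the median of all measured genes and dashed lines 1.5-fold, and the members' median lies highest above that of all genes in monocytes (1.45 against 0.956) and below it in stromal cells (0.863 against 0.986).

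Macrophages were the largest class, with 4364, 3519, 4091 and 4126 cells, so their ratios were the most precise. Hif1a was the 1 member past 1.5-fold upward, at 145, 161, 137 and 246 CPM, a ratio of 1.70 (95% interval 1.67 to 1.74). It was also at least 1.5-fold above all 3 other libraries, as were 4.06% of genes in macrophages. Vegfa stood at 221, 299, 206 and 329 CPM, a ratio of 1.49 (95% interval 1.46 to 1.51), and Hilpda at 129, 188, 124 and 179.5 CPM, a ratio of 1.39 (95% interval 1.36 to 1.43). For these 2 targets titled anti-CTLA-4 was near the combination and titled anti-FcgRII near isotype control. Glucose entry and its first committed steps differed less. Slc2a1 was at 463, 513, 437 and 514 CPM (ratio 1.11), Hk2 at 199, 245, 193 and 245 CPM (1.23) and Pfkp, a phosphofructokinase subunit, at 227, 243, 204 and 286 CPM (1.26). Pfkfb3, which makes the activator of phosphofructokinase, was at 211, 249, 186 and 237 CPM (1.12), Ldha at 993, 1044, 1029.6 and 1129 CPM (1.14) and Egln3 at 149.96, 146, 148 and 178 CPM (1.18). All of these ratios were below 1.5.

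The smallest macrophage ratio was that of Adm, at 20.5, 26.6, 14.5 and 12.1 CPM, a ratio of 0.590 (95% interval 0.549 to 0.633). Pfkfb4, the other bifunctional regulator of phosphofructokinase, followed at 64.0, 57.4, 61.9 and 52.0 CPM (0.813), with the mitophagy receptor gene Bnip3 at 55.0, 67.4, 58.0 and 48.7 CPM (0.885) and Pdk1, the gene of a kinase that inhibits pyruvate dehydrogenase, at 126, 123, 129.6 and 113 CPM (0.898). The combination was the lowest library for all 4. In the same cells the 14 genes of a stress and dissociation list held 0.484, 0.462, 0.444 and 0.383% of UMIs and the 13 mitochondrially encoded genes 0.898, 0.952, 1.10 and 0.628%, lowest in the combination in both cases, and their part in these ratios was not tested. Neutrophil markers held 0.0233, 0.0249, 0.0209 and 0.0410% of macrophage UMIs, highest in the combination, and their part was not tested either.

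The macrophages fell into 11 clusters, numbered by size among all 27 clusters, and most members had their highest level in a single one. Cluster 2 was led by Ctsk, Hspa1a, Hspb1, Hspa1b, Gdf15, Adm, Hilpda, Plk2, Hyal1 and Atf3. It had the highest mean level of 26 of 32 members. Members took no part in clustering, but Adm and Hilpda are members and stand among these leading genes, as do heat shock genes. Slc2a1 reached 1579, 1816, 1536 and 1398 CPM there against 635, 712, 603 and 760.3 CPM in cluster 15, the next highest by mean. Vegfa reached 854, 1134, 826 and 1139 CPM and Hilpda 672, 971, 719 and 872 CPM. Cluster 2 held 16.1, 15.8, 14.5 and 11.6% of macrophages in the 4 libraries, so its share was lowest in the combination. Cluster 15, led by Mmp12, Clmp, Cxcl3 and Nos2, was highest for Hif1a (299.5, 486, 254 and 441 CPM) and Slc16a3, and its share was 2.59, 4.15, 2.64 and 7.80%, highest in the combination. Clusters 16 and 21 were lowest for 13 and 12 members. The shares of all genes highest or lowest in each macrophage cluster are not given here. Cluster 21, of 142 cells led by Retnla, Saa3 and Lyve1, had Slc2a1 at 122, 124, 158 and 323 CPM.

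Vegfa, Hif1a, Hilpda and Hk2 were higher in the combination in every macrophage cluster where they were measured, as were Hk1, Pgam1 and Pkm. These genes were grouped by the values themselves, and the shares of all genes by macrophage cluster are not given here. Vegfa was above isotype control in 11 of 11 clusters, at least 1.5-fold in 8, with ratios from 1.24 to 5.93. Hif1a was above it in 11 of 11, at least 1.5-fold in 5 (1.34 to 2.09), Hilpda in 10 of 10 measured, at least 1.5-fold in 6 (1.03 to 2.89), and Hk2 in 11 of 11, at least 1.5-fold in 4 (1.08 to 2.13). Slc2a1 was above it in 10 of 11, the exception being cluster 2, where its ratio was 0.886. Pfkfb4 and Pdk1 ran the other way, with 1 and 3 of 11 clusters above isotype control. In cluster 2 itself the summed ratios were 0.952 for glycolysis and 1.00 for hypoxia. In cluster 4, led by Slc4a11, Ifitm1, Mgl2 and Ccl17, they were 1.36 and 1.597, and in cluster 1, led by Dnase1l3, Gbp2b and Cxcl9, 1.32 and 1.35. Vegfa in cluster 4 was at 158, 232, 176 and 373 CPM and in cluster 1 at 76.4, 104, 92.3 and 226 CPM. When clusters were given the same weights in every library, 3 macrophage members were at least 1.5-fold higher in the combination and 0 lower, against 1 and 1 as found. The shares of all genes under these weights are not given here.

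**Figure D4:**
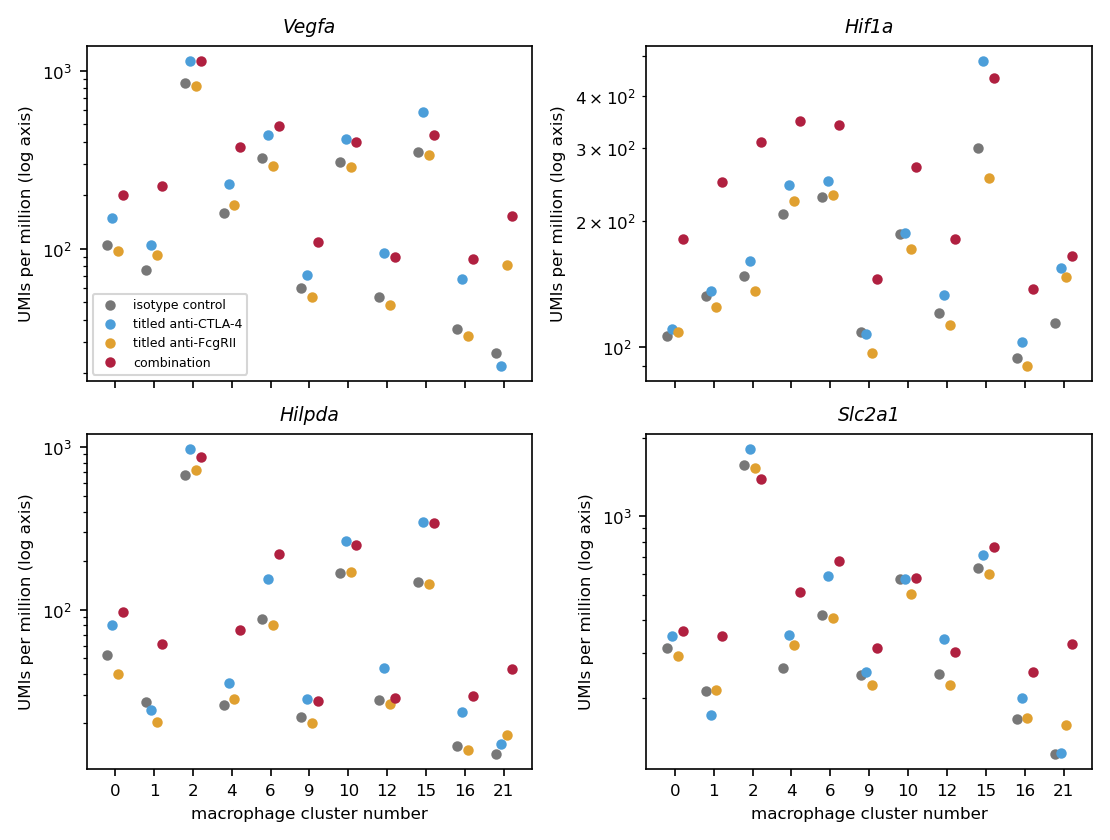
Levels in CPM on a log axis of Vegfa, Hif1a, Hilpda and Slc2a1 in each of the 11 macrophage clusters, with 1 point per library. The combination lies above isotype control in 11 of 11 clusters for Vegfa and Hif1a and in 10 of 11 for Slc2a1, and cluster 2 has the highest level of Vegfa, Hilpda and Slc2a1.

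Monocytes (1061, 699, 459 and 668 cells) had their largest ratios among hypoxia targets. Hilpda was at 35.01, 52.2, 31.4 and 103 CPM, a ratio of combination to isotype control of 2.94 (95% interval 2.62 to 3.32), and Egln3 at 84.0, 120.0, 76.5 and 215 CPM, a ratio of 2.56 (95% interval 2.37 to 2.76). Both were at least 1.5-fold above all 3 other libraries, as were 2.99% of genes in monocytes. Vegfa was at 151, 246, 165 and 303 CPM (ratio 2.01, 95% interval 1.89 to 2.14) and Slc2a1 at 301, 385, 349.7 and 539 CPM (ratio 1.79, 95% interval 1.71 to 1.87), with titled anti-CTLA-4 between the combination and isotype control for both. Hif1a, at 233, 321, 271 and 350.0 CPM, had a ratio of 1.4999. Hk2 (183, 250.3, 195 and 274 CPM, ratio 1.497) and Ldha (608, 662, 665 and 901 CPM, ratio 1.48) were close to it. All 3 lay just under 1.5-fold and were not counted, and Pfkfb3 was at 170.5, 203, 169.9 and 225 CPM (1.32). Pfkfb4 was the 1 member below isotype control, at 91.5, 93.9, 76.9 and 74.9 CPM, a ratio of 0.819. The histone demethylase Kdm3a (81.4, 90.2, 70.8 and 95.6 CPM, 1.17), the MYC antagonist Mxi1 (115, 140.3, 105 and 134 CPM, 1.16) and Car9 (5.42, 3.75, 5.55 and 6.04 CPM, 1.11) completed the smallest ratios. Adm was at or under 2.40 CPM in all 4 libraries and was not compared.

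The 2 monocyte clusters differed in level and changed in share. Cluster 5 held 523, 395, 286 and 457 cells and cluster 8 538, 304, 173 and 211, so isotype control had about as many of either and the combination mostly cluster 5. The glycolysis sum was 6511, 7371, 6654 and 8131 CPM in cluster 5 and 2829, 2414, 2584 and 3987 CPM in cluster 8. Both clusters shared the direction of the class. In cluster 5, led by Plac8 and Chil3, the summed ratios were 1.249 for glycolysis and 1.33 for hypoxia, and 4 of 31 members were at least 1.5-fold higher (4.74% of all genes there), namely Egln3, Vegfa, Ndrg1 and Hilpda. In cluster 8, led by Ace and Adgre4, they were 1.41 and 1.34, with 12 of 30 higher and 0 lower (6.32% and 2.87%). Hilpda had ratios of 2.55 and 2.72 in clusters 5 and 8. With both clusters weighted alike in every library, 3 members were higher, against 9 as found. The shares of all genes under these weights are not given here. Monocytes of the combination had less of the stress and dissociation list (1.17, 0.986, 1.01 and 0.769% of UMIs). Macrophage markers held 1.28, 1.18, 1.601 and 1.55%, so their share was higher in titled anti-FcgRII and the combination. Neutrophil markers held 0.0527, 0.0557, 0.0484 and 0.0800% of monocyte UMIs, highest in the combination. The part of these lists was not tested.

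Dendritic cells (216, 140, 85 and 112 cells) had the largest ratios on few UMIs. Hilpda was at 7.33, 10.5, 9.81 and 50.1 CPM, a ratio of 6.85 (95% interval 3.84 to 12.97), and Vegfa at 23.0, 35.4, 22.9 and 123 CPM, a ratio of 5.37 (95% interval 3.85 to 7.62). Egln3 was at 20.0, 19.03, 13.1 and 64.9 CPM (ratio 3.24, 95% interval 2.20 to 4.85) and Ankrd37 at 12.7, 18.4, 9.81 and 35.3 CPM (ratio 2.78, 95% interval 1.67 to 4.72). For each of these 4 genes the combination was at least 1.5-fold above every other library. Of the 17 glycolysis members 7 were also at least 1.5-fold higher, namely Slc2a1, Pfkp, Aldoa, Tpi1, Pgk1, Pgam1 and Slc16a3. Slc2a1 was at 102, 163, 183 and 254 CPM (ratio 2.50), with isotype control apart from the other 3 libraries on the low side. Tpi1 was at 137, 131, 126 and 219 CPM (1.5995), the kinase Pgk1 at 109, 135, 124 and 204 CPM (1.87) and the mutase Pgam1 at 109, 127, 115 and 196 CPM (1.80). Slc16a3 was at 134, 149, 185 and 301 CPM (2.24). Counting Bnip3, which had under 50 UMIs, 9 of 31 members measured over the 4 libraries were at least 1.5-fold above all 3 others in the combination, beside 2.92% of genes.

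Hif1a, at 121, 166, 194 and 231 CPM (1.91), and Ddit4, at 65.0, 140, 97.0 and 117 CPM (1.80), were also past 1.5-fold. For Ddit4 titled anti-CTLA-4 was the highest library. Other dendritic members differed less. Ldha was at 463, 483, 468 and 626 CPM (1.35), Pfkfb3 at 233, 243, 245 and 303 CPM (1.30) and Hk2 at 122, 124, 126 and 157 CPM (1.29). Pfkfb4 was the 1 member past 1.5-fold downward, at 65.4, 55.1, 64.3 and 37.0 CPM, a ratio of 0.565 (95% interval 0.394 to 0.798). Kdm3a, Pdk1 and Gpi1 had ratios of 0.960, 0.998 and 1.02, and their intervals included 1. Kdm3a was at 65.9, 61.0, 51.2 and 63.3 CPM, Pdk1 at 52.7, 59.7, 54.5 and 52.6 CPM and Gpi1 at 266, 275, 264 and 271 CPM.

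The make-up of the dendritic class differed between libraries. Ccr7, a marker of migratory dendritic cells, was at 721, 615, 497 and 1421 CPM and Ccl22 at 482, 856, 946 and 1956 CPM, whereas Cd209a was at 566, 829.5, 613 and 343 CPM and Siglech, a plasmacytoid marker, at 288, 251, 135 and 127 CPM. Cells with at least 3 Ccr7 UMIs numbered 36, 21, 16 and 41 in the 4 libraries, and 16 of their 22 measured members were higher in the combination and 1 lower (14.9% and 14.3% of all genes). Among the 180, 119, 69 and 71 cells with fewer, 12 of 28 were higher and 1 lower (5.29% and 9.61%), with summed ratios of 1.45 for glycolysis and 1.55 for hypoxia. Vegfa in these cells was at 18.2, 25.7, 23.2 and 99.5 CPM, a ratio of 5.46, and in the others at 51.2, 87.9, 21.5 and 166 CPM, a ratio of 3.25. Its direction was thus present on both sides of the split, which was made after the values were seen. Pfkfb3, higher in the combination over the whole class, was not higher on either side. With at least 3 Ccr7 UMIs it was at 905, 774, 591 and 645 CPM, a ratio of 0.713 (interval 0.601 to 0.847). With fewer it was at 121, 145, 157 and 114 CPM, a ratio of 0.935 (interval 0.722 to 1.20). In that order, 19 of 22 and 26 of 28 measured members were above isotype control. The part of the make-up in the class ratios was not tested. Hilpda had under 50 UMIs on each side. Neutrophil markers held 0.0548, 0.0424, 0.0549 and 0.0663% of dendritic cell UMIs, highest in the combination, and their part was not tested.

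**Figure D5:**
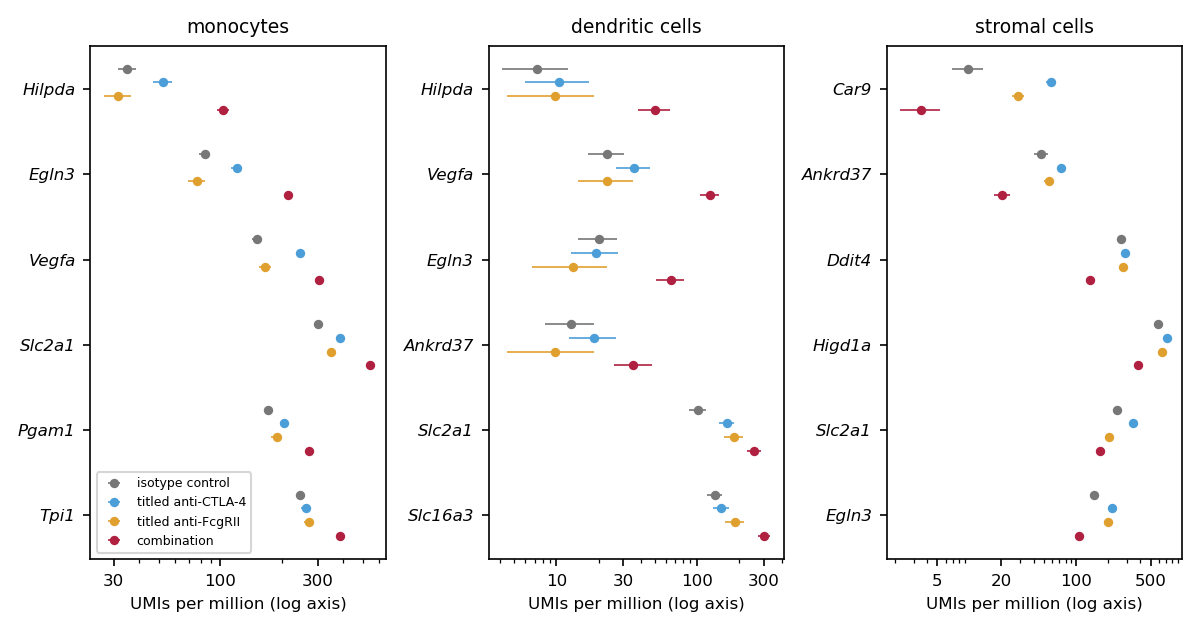
Levels in CPM on a log axis of 6 members in monocytes, 6 in dendritic cells and 6 in stromal cells, with 1 point per library and exact Poisson 95% intervals for counting error. The combination is the highest library for the monocyte and dendritic members and the lowest for the stromal members, for example 50.1 CPM of Hilpda against 7.33 to 10.5 CPM in dendritic cells and 3.53 CPM of Car9 against 9.72 to 57.8 CPM in stromal cells.

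Neutrophils (94, 87, 40 and 426 cells) had the highest mean level of 14 members and a median ratio of 0.986, with ratios from 0.447 to 1.88. Egln3 was at 499, 657, 550.1 and 935 CPM, a ratio of 1.88 (95% interval 1.5999 to 2.21), Tpi1 at 182, 241, 296 and 304 CPM (ratio 1.67, 95% interval 1.28 to 2.21) and Ankrd37 at 88.0, 131, 106 and 133 CPM (ratio 1.51, 95% interval 1.03 to 2.29). Aldoa was at 572, 672, 973 and 847 CPM (1.48). For Aldoa titled anti-FcgRII was highest, and for Ankrd37 titled anti-CTLA-4 nearly equalled the combination. Pfkfb4 was at 170.1, 159, 233 and 76.1 CPM, a ratio of 0.447 (95% interval 0.326 to 0.621), and the combination was at least 1.5-fold below all 3 others, as were 3.56% of genes. Bnip3 was at 99.7, 73.4, 127 and 66.0 CPM (ratio 0.662, 95% interval 0.447 to 1.00), Gpi1 at 290.4, 287, 233 and 208 CPM (0.716) and Mxi1 at 173, 183, 155 and 137 CPM (0.790). The interval of Bnip3 reached 1, and titled anti-FcgRII, with 40 cells, was highest for it. The key steps lay on both sides of 1, with Slc2a1 (0.875), Hk2 at 243, 211, 183 and 263 CPM (1.08), Pfkfb3 at 305, 333, 402 and 360.2 CPM (1.18) and Ldha at 865, 694, 1086 and 781 CPM (0.903). Hif1a was at 167, 189, 148 and 168 CPM (1.00) and Vegfa at 396, 391, 487 and 349 CPM (0.881). Ndrg1, a stress-responsive gene, was at 111, 122, 324 and 108 CPM, and Pdk1 at 41.1, 24.5, 42.3 and 51.1 CPM. Titled anti-FcgRII thus stood apart upward for the former and titled anti-CTLA-4 downward for the latter, as did 4.67% and 3.9% of genes. Pdk1 rested on 14, 8, 6 and 86 UMIs, and the intervals of its levels overlapped. The stricter filter left 65 of the 94 cells of isotype control, and the neutrophil counts under it are those given with the main comparison.

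In T cells (341, 582, 186 and 356 cells) the members that stood apart were those of glucose entry, capture and lactate export. Hk2 was at 33.4, 45.1, 49.2 and 81.9 CPM, a ratio of 2.45 (95% interval 1.79 to 3.41), and Slc2a1 at 133, 144, 112 and 238 CPM, a ratio of 1.79 (95% interval 1.52 to 2.11). Slc16a3 was at 117, 97.1, 91.2 and 179.9 CPM (ratio 1.54, 95% interval 1.29 to 1.85). For these 3 the combination was at least 1.5-fold above all 3 other libraries, as were 1.62% of genes in T cells. Pgam1 was at 91.1, 106, 82.0 and 145 CPM (ratio 1.59, 95% interval 1.30 to 1.95) and Hilpda at 78.9, 86.6, 37.9 and 119 CPM (ratio 1.51, 95% interval 1.21 to 1.89), the latter lowest in titled anti-FcgRII. Pfkfb3 was at 106, 125, 96.3 and 155 CPM (1.47), Ldha at 730.2, 792, 669 and 911 CPM (1.247) and Egln3 at 59.0, 51.4, 55.3 and 75.9 CPM (1.29). Hif1a, highest in this class, had a ratio of 1.03 (95% interval 0.930 to 1.14), whose interval included 1. The smallest ratios were those of Ddit4 at 325, 267, 262 and 305 CPM (0.941), Vegfa at 36.6, 21.5, 38.9 and 34.5 CPM (0.943) and Hk1, the housekeeping hexokinase, at 256, 240.1, 239.7 and 253 CPM (0.986), all with intervals that included 1.

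The 2 T cell clusters changed in share. Cluster 11 held 125, 327, 96 and 217 cells and cluster 13 216, 255, 90 and 139, so cluster 13 was the larger in isotype control and cluster 11 in the other 3 libraries. In cluster 11, with Cd8a, Cd8b1 and Ifng among its leading genes, the summed ratios were 1.41 and 1.36 and 12 of 28 members were at least 1.5-fold higher (6.86% of all genes), with Slc2a1 at 119, 143, 128 and 224 CPM and Hk2 at 27.8, 45.5, 53.7 and 76.4 CPM. In cluster 13, with Cd4, Foxp3 and Icos among its leading genes, they were 1.33 and 1.11 and 5 of 28 were higher (6.67%), with Slc2a1 at 144, 145, 91.8 and 267 CPM and Hk2 at 37.7, 44.3, 43.6 and 93.9 CPM. The combination was above isotype control for Slc2a1 and Hk2 in both clusters. Ddit4 and Hif1a, close to isotype control over the whole class, differed between the clusters. In cluster 11 their ratios were 1.69 (interval 1.36 to 2.13) and 1.49 (interval 1.26 to 1.76). In cluster 13 they were 0.913 (interval 0.782 to 1.06) and 0.938 (interval 0.816 to 1.08). Ddit4 was at 149, 193, 133 and 253 CPM in cluster 11 and 461, 406, 422 and 421 CPM in cluster 13. The part of the cluster shares in the class ratios was not tested. Macrophage markers held 0.155, 0.105, 0.122 and 0.168% of T cell UMIs, and the stress and dissociation list 0.558, 0.335, 0.558 and 0.392%. Neutrophil markers held 0.0334, 0.0156, 0.0106 and 0.0617% of T cell UMIs, highest in the combination. With T cells rich in macrophage markers kept in, 3 members were higher, against 5, and the part of these lists was not tested. The share of all genes with those cells kept in is not given here.

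NK cells (309, 416, 201 and 408 cells) had a median member ratio of 1.19, beside 0.990 for all genes. Ankrd37 was at 14.9, 15.5, 21.8 and 28.6 CPM (ratio 1.92, 95% interval 1.24 to 3.06), Egln3 at 12.7, 10.4, 10.9 and 23.6 CPM (ratio 1.86, 95% interval 1.16 to 3.10) and Ddit4 at 139, 174, 187 and 231 CPM (ratio 1.66, 95% interval 1.44 to 1.92). For Egln3 the combination was at least 1.5-fold above all 3 others, as were 1.51% of genes in NK cells. Hilpda was at 40.2, 51.4, 39.2 and 59.8 CPM (1.49) and Hif1a at 137, 130.4, 129.9 and 165 CPM (1.21). Slc2a1 at 144, 118, 131 and 152 CPM (1.06), Ldha at 635, 603, 665 and 664 CPM (1.05) and Vegfa at 112, 94.0, 123 and 117 CPM (1.05) had intervals that included 1. The glycolytic regulators were at the low end. Hk2 was at 39.1, 20.1, 22.5 and 28.9 CPM (0.738), Pfkfb4 at 11.0, 2.93, 5.08 and 8.75 CPM (0.794), Pfkp at 308, 298, 267 and 269 CPM (0.874) and Pfkfb3 at 72.7, 59.8, 63.1 and 65.0 CPM (0.894), and of these only the interval of Pfkp excluded 1. The 2 NK clusters changed in share, with 217, 301, 129 and 225 cells in cluster 7, led by Gzma and Klrb1c, and 92, 115, 72 and 183 in cluster 19, led by Gzmc and Gzmd. Their glycolysis sums were 2337, 2105, 2109 and 2595 CPM and 3874, 3866, 3857 and 3999 CPM, so the cluster with the higher level had its largest share in the combination. Within them the ratios were 1.11 and 1.03 for glycolysis and 1.23 and 1.13 for hypoxia. In cluster 7, 3 of 23 members were higher (Pdk1, Slc16a3 and Vegfa) and 0 lower (5.15% and 4.13% of all genes). In cluster 19, 3 of 29 were higher (Ankrd37, Mxi1 and Ddit4) and Hk2 lower (5.6% and 5.47%). Egln3 was past 1.5-fold in neither, with under 50 UMIs in cluster 7 and a ratio of 1.35 in cluster 19. Neutrophil markers held 0.0293, 0.000543, 0.000653 and 0.00402% of NK cell UMIs, highest in isotype control. Macrophage markers held 0.142, 0.0656, 0.111 and 0.234% of UMIs, highest in the combination. With the NK cells rich in these markers kept in, the ratio of Egln3 became 0.756 and 1 member was at least 1.5-fold higher and 1 lower, so the NK counts depended on setting those cells apart. The shares of all genes with those cells kept in are not given here.

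Stromal cells (71, 93, 97 and 75 cells, each with many UMIs) were the class in which the combination was low. Car9 was at 9.72, 57.8, 28.4 and 3.53 CPM, a ratio of 0.364 (95% interval 0.206 to 0.629), and Ankrd37 at 47.0, 73.0, 55.2 and 20.3 CPM, a ratio of 0.432 (95% interval 0.342 to 0.543). Ddit4 was at 263, 288, 278 and 136 CPM (ratio 0.518, 95% interval 0.473 to 0.568), Higd1a at 582, 719, 642 and 385 CPM (ratio 0.661, 95% interval 0.624 to 0.700) and the aldolase gene Aldoc at 12.6, 3.70, 2.04 and 1.08 CPM (ratio 0.0853, 95% interval 0.0326 to 0.190). For all 5 the combination was at least 1.5-fold below all 3 other libraries, as were 1.61% of genes in stromal cells. Aldoc rested on 48, 27, 17 and 7 UMIs, and its intervals in titled anti-FcgRII and the combination overlapped. Car9 rested on 37, 422, 237 and 23 UMIs. Aldoc differed from the rest in that isotype control was far above both single antibody libraries. Slc2a1 was at 244, 343, 204 and 168 CPM (0.688), Egln3 at 146, 218, 198 and 107 CPM (0.732), Hk2 at 138, 157, 110.4 and 99.7 CPM (0.725) and Vegfa at 232, 278, 255 and 194 CPM (0.836), each lowest in the combination and highest in titled anti-CTLA-4. Of the pyruvate and lactate steps, Pdk1 was also lowest in the combination, at 140, 204, 166 and 130 CPM. Ldha and Slc16a3 were not lowest there, and neither were the regulators Pfkfb3 and Pfkfb4. Ldha was at 954, 1357, 1036 and 1011 CPM (1.06), Slc16a3 at 573, 845, 626 and 649 CPM (1.13), Pfkfb3 at 29.1, 33.97, 25.5 and 35.6 CPM (1.22) and Pfkfb4 at 14.7, 14.9, 16.4 and 15.7 CPM (1.07). Hif1a, at 99.0, 116, 102 and 95.7 CPM, had a ratio of 0.967 (95% interval 0.850 to 1.10).

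Titled anti-CTLA-4 was the highest stromal library for 28 of 32 members, a rank held by 18.3% of genes there. Against it, 12 of 31 members were at least 1.5-fold lower in the combination and 0 higher (4.71% and 1.8% of all genes), with a median ratio of 0.717. Adm, measured there on few UMIs, was at 1.05, 13.7, 4.79 and 2.46 CPM. Of the 2 stromal clusters, cluster 20, led by collagen genes such as Col3a1 and Col6a1, held 56, 84, 96 and 69 of these cells. Its summed ratios were 0.939 and 0.751, with 5 of 30 members lower (4.83%). Cluster 26, led by the keratin genes Krt19, Krt8 and Krt18, held 15, 9, 1 and 6 cells. There 5 of 10 measured members were higher in the combination (11.1%), with summed ratios of 1.41 and 1.61. The smaller cluster thus went the other way, but on 6 cells of the combination against 15 of isotype control.

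Fewer pairs of a member and a class were past 1.5-fold from isotype control in the single antibody libraries than in the combination. The shares of all pairs of a gene and a class were smaller there too, against 6.45% higher and 7.66% lower in the combination. The numbers of member pairs measured for the single antibody libraries are not given here. Over the 7 classes, titled anti-CTLA-4 had 8 pairs of a member and a class higher and 3 lower than isotype control (2.8% and 4.4% of all pairs of a gene and a class), and titled anti-FcgRII 8 and 6 (2.5% and 5.45%). With the stricter cell filter the higher pairs became 17 and 18, beside 2.89% and 2.5%. Sums did not all follow these counts. For stromal glycolysis titled anti-CTLA-4 stood at 1.32 times isotype control and the combination at 0.968, and for neutrophil glycolysis titled anti-FcgRII stood at 1.23 and the combination at 1.10.

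In titled anti-CTLA-4, 0 macrophage members were at least 1.5-fold away from isotype control (1.83% of all genes higher and 4.02% lower). The monocyte member past it was Vegfa, with a ratio of 1.63 (95% interval 1.53 to 1.75) (1.42% of genes higher), and in dendritic cells Slc2a1, Vegfa and Ddit4 were higher (2.21%). In stromal cells Bnip3, Adm, Ankrd37 and Car9 were higher and Aldoc lower (3.42% and 5.08%), while Vegfa was lower in T cells (4.12%) and Hk2 in NK cells (3.74%). In titled anti-FcgRII, 0 macrophage and 0 monocyte members were past 1.5-fold in either direction (1.52% and 1.68% of all genes higher, 6.11% and 2.67% lower). In dendritic cells Slc2a1, at 1.80 times isotype control, and Hif1a were higher and Egln3 lower (2.4% and 6.94%). In neutrophils, with 40 cells in that library, Aldoa, Tpi1, Slc16a3 and Ndrg1 were higher and Higd1a lower (10.1% and 13.9%). In T cells Aldoc was higher and Hilpda lower (3.33% and 4.03%), in NK cells Hk2 and Mxi1 were lower (4.63%), and in stromal cells Car9 was higher and Aldoc lower (2.32% and 6.39%).

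Several members were also higher in the combination than in either single antibody library. Over the 7 classes, 24 pairs were higher in the combination and 15 lower than in titled anti-CTLA-4 (5.71% and 4.83% of all pairs of a gene and a class), and 38 and 12 against titled anti-FcgRII (8.22% and 5.7%). Against titled anti-CTLA-4, 4 of 31 monocyte, 11 of 29 dendritic and 4 of 29 T cell members were at least 1.5-fold higher (6.3%, 5.99% and 4.33% of all genes). Against titled anti-FcgRII the counts were 7 of 31, 11 of 29 and 10 of 29 (5.52%, 7.43% and 6.1%). These comparisons share the combination library with each other and with the main comparison.

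Genes of the same pathways outside the 32 were counted from lists of related genes. In macrophages 2 of 17 measured genes of an other-glycolysis list were at least 1.5-fold higher in the combination and 0 lower, beside 6.11% and 6.83% of all genes. Hk3, a hexokinase of myeloid cells, was at 214, 296, 197 and 501 CPM, a ratio of 2.35 (95% interval 2.31 to 2.38), and the enolase gene Eno2 at 1.02, 1.27, 1.24 and 2.42 CPM, a ratio of 2.37 (95% interval 1.86 to 3.05). Hk3 was highest in the combination and was past 1.5-fold in the other 6 classes as well. Its levels in those classes and the share of all genes past 1.5-fold in every class are not given here. The part of macrophage and neutrophil markers found in other classes was not tested. Of 32 measured genes of an other-hypoxia list, 4 were higher and 2 lower. Pgf, a placental growth factor related to Vegfa, was at 3.45, 5.57, 2.62 and 6.28 CPM (ratio 1.82, 95% interval 1.59 to 2.09), Angptl4, an inhibitor of lipoprotein lipase, at 3.93, 4.40, 4.24 and 10.6 CPM (ratio 2.69, 95% interval 2.38 to 3.04) and the lipid droplet coat gene Plin2 at 417, 486, 432 and 670.4 CPM (ratio 1.61, 95% interval 1.59 to 1.63). Fam13a was also higher. Epas1, the HIF-2 alpha gene, was at 4.82, 3.92, 6.30 and 3.10 CPM (ratio 0.644, 95% interval 0.557 to 0.745) and Zfp395 at 57.2, 51.2, 49.7 and 31.7 CPM (ratio 0.555, 95% interval 0.531 to 0.579). None of 18 tricarboxylic acid cycle genes and none of 7 pentose phosphate genes was past 1.5-fold in macrophages, with median ratios of 0.955 and 0.991.

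The other-hypoxia list differed by class. In monocytes 10 of 29 measured genes were higher and 0 lower (6.38% and 5.36% of all genes), with a median ratio of 1.32, and in T cells 3 of 24 and 0 (5.77% and 5.5%), with a median of 1.17. In neutrophils 6 of 17 were higher and 0 lower (16% and 18.1%), with a median of 1.11, and in NK cells 2 of 25 and 0 (5.6% and 3.85%), with a median of 1.12. In dendritic cells 3 of 20 were higher and 1 lower (5.84% and 11.6%), with a median of 1.04, which was below the 1.38 of the members there. In stromal cells 1 of 28 was higher and 5 lower (4.1% and 7.83%), with a median of 0.828. The other-glycolysis list was split. In monocytes 3 of 15 were higher and 2 lower, in dendritic cells 2 and 2 of 10, in neutrophils 1 and 4 of 7, in T cells 2 and 1 of 12, in NK cells 2 and 1 of 13 and in stromal cells 4 and 2 of 16. The tricarboxylic acid cycle and pentose phosphate lists had 0 genes past 1.5-fold in monocytes, dendritic cells, T cells, NK cells and stromal cells, and 1 gene lower each in neutrophils, Idh3b and Tkt.

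The stress and dissociation list was lower in the combination in each of the 7 classes by its median ratio, which ran from 0.589 in NK cells to 0.842 in macrophages. In macrophages 1 of 14 was higher (Ier3) and 3 lower, among them Hspa1a at 466, 378, 396 and 87.8 CPM and Hspa1b at 564, 429, 475 and 110.4 CPM, beside 6.11% and 6.83% of all genes. Lower were also 6 of 14 in monocytes, 5 in dendritic cells, 7 of 13 in neutrophils, 7 of 14 in T cells, 11 in NK cells and 7 in stromal cells, against 5.36%, 11.6%, 18.1%, 5.5%, 3.85% and 7.83% of all genes in that order.

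Across the 27 clusters, the genes outside the lists whose mean levels ranked most like the sum of the 12 hypoxia targets were Npepps, an aminopeptidase gene, with a Spearman rho of 0.80, Alkbh5 with 0.76 and Rgcc with 0.76, out of 7533 genes ranked. Phlda1, Parp10, Mapk6, Rabgef1, Eaf1, Mdm2 and Slc3a2 followed with 0.74 to 0.68. Among the members, which include the targets themselves, Hilpda had 0.84, Vegfa 0.79, Egln3 0.77, Ldha 0.76 and Slc2a1 0.73. Hif1a had 0.49. Pfkfb4 had -0.01, Car9 0.05 and Aldoc 0.11, so these 3 did not rank with the targets over clusters. The clusters share 4 libraries and differ in depth, and the values are descriptions.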

How the data were processed

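Live CD45+ cells from pooled MC38 tumors of 4 groups were profiled in 1 probe-based single-cell library each. Per the submitters' processing notes Cell Ranger 7.0.0 was used with mm10, while the matrix headers name 7.2.0. The authors deposited raw UMI counts of called cells with no normalization, and these counts were used. Cells with fewer than 500 genes or over 10% mitochondrial UMIs were left out, as were the 5% with the highest Scrublet doublet score per library, since the automatic threshold marked only 1 to 3 cells per library. Libraries were normalized and integrated in R 4.3.3 (Seurat 5.3.0, sctransform 0.4.2), from 3000 features, 2979 after the members were taken out, with 30 principal components and resolution 0.8. Embeddings rather than expression values were integrated to save memory. Clusters were named from fixed markers. Cells of the T, NK, neutrophil, dendritic and stromal classes with at least 1% of UMIs on macrophage markers, 318, 94, 176 and 273 in the 4 libraries with those of other small classes, were set apart as mixed, a choice made after the cells were seen, and 878, 378, 412 and 733 cells stayed unnamed.

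UMIs were summed per class and library and divided by the UMIs of the class (Python 3.11.15, numpy 2.4.6, scipy 1.17.1, pandas 2.3.3, scanpy 1.11.5, matplotlib 3.10.9). Levels carry exact Poisson 95% intervals and ratios exact conditional (Clopper-Pearson) ones. They cover counting error only, and the UMIs of the gene in the class and library set their width. The deposited libraries held 129151823 to 196362818 UMIs in all. A gene was measured in a comparison with at least 50 UMIs over both libraries, and 1.5-fold was the threshold for counting it. Tested on simulated data, this rule recovered 98.5% of 2-fold changes in macrophages and 77.5% in neutrophils, and counted 0.558% and 10.2% of unchanged genes. The simulated counts held counting error alone, with no variation between cells, mice or libraries, so these are not error rates for the real libraries. No test between groups was possible with 1 library per group. Aldoa had 2 identifiers, and the one with more UMIs was used. Promoters came from a RefSeq table of GRCm38.p6, which held 31 of 32 members.

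Values by library are given for the 4 largest and 4 smallest ratios in a class, for members at least 1.5-fold from all 3 other libraries and for Slc2a1, Hk2, Pfkfb3, Ldha, Hif1a, Vegfa and Egln3. The members, gene lists and rules were chosen with earlier results of these data known. Alternatives covered clustering with the members, no integration, doublets kept, stricter cell filters, 2 other scalings, other UMI minimums and folds, mixed cells kept, and equal cluster weights.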

Additional observations from a re-analysis of the deposited data

Results flagged for a closer look

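Mast cells or basophils, a small class outside the comparisons with 66, 25, 23 and 35 cells, were above all 7 classes in every library for 2 members. Hk1 was at 296, 266, 333 and 375 CPM, with a lowest value of 266.2 CPM, against 261, 266, 296 and 369 CPM for neutrophils, the highest of the 7 classes. Each value lay inside the neutrophil interval of its library, 210 to 321, 213 to 328, 213 to 400 and 341 to 399 CPM. The difference in Hk1 was thus within counting error in every library. Ndrg1 was at 566, 659.5, 469 and 665 CPM, with a lowest value of 468.9 CPM, against 342, 412, 324 and 327 CPM. These values come from a class that the comparisons left out, with 425 and 791 UMIs of the genes in all.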

How the results depend on the processing

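No paired analysis was possible because each group has 1 library and the labels number no replicates. Libraries could not be left out either. Of the 43 ratios past 1.5-fold between the combination and isotype control, 43 kept their direction with the members kept in clustering, without integration, with doublets kept, with size factors and with the mean over cells, and 42 with stricter cell filters. With mixed cells kept, 31 of 32 did, and with clusters weighted alike, 24 of 24. The 2 reversals were Bnip3 in neutrophils, with a ratio of 1.28 under stricter filters, and Egln3 in NK cells, 0.756 with mixed cells kept. Summed ratios ranged over the alternatives from 1.12 to 1.22 for glycolysis and 1.07 to 1.19 for hypoxia in macrophages, 1.28 to 1.55 and 1.34 to 1.64 in monocytes, 1.36 to 1.57 and 1.499 to 1.70 in dendritic cells, 0.954 to 1.41 and 0.911 to 1.64 in neutrophils, 1.26 to 1.38 and 1.10 to 1.24 in T cells, 1.05 to 1.18 and 1.14 to 1.29 in NK cells, and 0.943 to 1.02 and 0.758 to 0.871 in stromal cells. Only neutrophils, and glycolysis in stromal cells, crossed 1. Size factors raised log2 ratios of all genes by 0.11 in macrophages and dendritic cells, 0.06 in monocytes and at most 0.04 elsewhere.

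Counts of members moved by over 1.5 times as follows, and the cause was not tested beyond the settings' own construction. With a threshold of 25% above equality in place of 50%, the members higher in the combination numbered 4 in macrophages, 23 in monocytes, 20 in dendritic cells, 7 in neutrophils, 15 in T cells and 12 in NK cells, and those lower 4 in neutrophils, 2 in NK cells and 11 in stromal cells. At 2-fold the higher were 0, 3, 6, 0, 1 and 0 in the same 6 classes, and the lower 0 in macrophages and dendritic cells, 1 in neutrophils and 3 in stromal cells. Over all genes the shares higher at 25% were 10.4% to 27.4% in the 7 classes and those lower 13.7% to 31.3%, and at 2-fold 1.26% to 6.6% and 1.05% to 5.93%. Stricter cell filters gave 13 higher and 1 lower in neutrophils (18% and 19.9%). Mixed cells kept gave 3 higher in T cells, and 1 higher and 1 lower in NK cells. Clusters weighted alike gave 8 higher in T cells, 3 in monocytes, and 3 higher and 0 lower in macrophages. The mean over cells gave 7 higher in NK cells, 18 in monocytes and 1 in neutrophils. Size factors gave 3 higher in macrophages, 17 in monocytes and 1 lower in neutrophils. Members kept in clustering gave 16 higher in monocytes. A minimum of 20 UMIs gave 1 higher in stromal cells and 4 lower in neutrophils, and one of 200 UMIs 1 higher in NK cells, 0 lower in dendritic cells and neutrophils and 3 lower in stromal cells. Doublets kept gave 3 higher in T cells, and 2 higher and 0 lower in macrophages. No integration gave 5 higher and 1 lower in NK cells, 3 higher in T cells and 17 in monocytes. Over all 7 classes, 6.45% of gene and class pairs were higher in the combination and 7.66% lower in the main setting. The mean over cells called 7.96% and 9.09%, size factors 7.5% and 6.36%, and members in clustering 6.48% and 8.03%. No integration called 6.4% and 7.8%, doublets kept 6.76% and 7.68%, and mixed cells kept 5.72% and 8.33%. The minimums of 20 and 200 UMIs called 8.13% and 10.1%, and 4.65% and 4.36%. Shares by class under these settings are not given.

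For the other comparisons, pairs of a member and a class were counted over all 7 classes. The combination had 24 pairs higher and 15 lower than titled anti-CTLA-4 (5.71% and 4.83% of all pairs), and 38 and 12 against titled anti-FcgRII (8.22% and 5.7%). Titled anti-CTLA-4 had 8 higher and 3 lower than isotype control (2.8% and 4.4%), and titled anti-FcgRII 8 and 6 (2.5% and 5.45%). In that order these became 66 and 36, 81 and 25, 43 and 13, and 23 and 17 at 25%, and 6 and 9, 11 and 6, 4 and 1, and 3 and 2 at 2-fold. Over all genes the shares in the same order were 12.6% and 13.9%, 15.9% and 15.7%, 8.64% and 12%, and 8.63% and 13.5% at 25%, and 2.41% and 1.21%, 4.07% and 1.44%, 0.752% and 1.46%, and 0.55% and 2.2% at 2-fold. Stricter filters gave 17 and 18 higher in the single antibody libraries (2.89% and 2.5% of all genes). Mixed cells kept gave 52 higher in the combination than in titled anti-CTLA-4, 22 lower in titled anti-CTLA-4 and 3 lower in titled anti-FcgRII (7.16%, 7.1% and 5.29%). The mean over cells gave 19 higher and 5 lower in titled anti-CTLA-4 (4.03% and 5.51%) and 10 lower in titled anti-FcgRII (6.61%). Members kept in clustering gave 13 higher in titled anti-CTLA-4 (2.84%). A minimum of 20 UMIs gave 7 lower in titled anti-CTLA-4 (6.97%) and 10 in titled anti-FcgRII (8.7%). A minimum of 200 UMIs gave 5 higher in titled anti-FcgRII (1.11%) and 7 lower in the combination than in it (3.26%). It gave 0 lower in titled anti-CTLA-4 (1.76%) and in titled anti-FcgRII (2.22%). No integration gave 13 higher and 5 lower in titled anti-CTLA-4 (3.29% and 3.89%) and 11 lower in titled anti-FcgRII (5.02%). Neutrophils held the fewest UMIs of the 7 classes in 3 libraries, 141782 to 340938, and dendritic cells in the combination, 1216414, which widens their intervals.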
